A study of Homo sapiens with 3 samples.

Results

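Notch ligands, Notch receptors, HES repressors and ATOH1 were examined in DLD1 cells, a human colorectal adenocarcinoma line, in which a mouse Cdx homeoprotein was switched on. The members were all probes whose gene symbol in the platform's annotation was JAG1, JAG2, DLL1, DLL4, NOTCH1, NOTCH2, NOTCH3, HES1, HES4 or ATOH1. These 10 genes had 12 of the 24460 gene probes, 3 of them for NOTCH1, and the array named 17559 genes in all. TORAY 3D-Gene arrays of 2 colours were used, 3 in number, and each carried RNA of induced cells together with RNA of the same cells without induction. The induced cells carried FLAG-tagged mouse Cdx2 for 24 h, Cdx1 for 24 h or Cdx1 for 12 h after doxycycline (DOX) had been withdrawn. The non-induced cells carried the same TetOff construct and were kept in 0.5 µg/mL DOX, so the absence of the drug and the presence of the homeoprotein cannot be told apart. The cells of each homeoprotein came from a TetOff clone, so the homeoprotein and the clone cannot be told apart either. Each group held 1 array, with no replicate and no dye swap.

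Ratios are log2 of Cy3 over Cy5, and induced cells were likely in Cy3. This direction follows from the titles of the samples, from the dye named beside each source and from the legend in the study, while the channels' cell line entries state the reverse. With the reverse direction all signs given here would change. Since Cdx1 and Cdx2 were of mouse origin, and the human probes may not read mouse RNA, human CDX probes did not check the induction or its direction. CDX2 read 0.64, 0.03 and -0.46 on the Cdx2 24 h, Cdx1 24 h and Cdx1 12 h arrays, on the log2 Cy3 over Cy5 scale. The cells carried epithelial markers: all 9 with a probe, among them EPCAM, CDH1 and VIL1, exceeded 10 times the background threshold in Cy5 on every array. Of the fibroblast, immune and endothelial markers, 1 of 6, 3 of 5 and 3 of 3 stood above background in both channels on all arrays, and CD79A was the only 1 of them past 10 thresholds. Depth on an array is the number of spots above the blanks, and 87.5%, 86.4% and 86.9% of gene probes on the Cdx2 24 h, Cdx1 24 h and Cdx1 12 h arrays passed in both channels.

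Notch is a receptor on the cell surface that is activated by ligands of the Jagged and Delta-like families on a neighbouring cell. Ligand binding leads to cleavage of the receptor, and its intracellular part enters the nucleus, binds the DNA-binding protein RBPJ and switches on target genes, of which HES1 is the best known. In the intestinal epithelium HES1 represses ATOH1, the factor that directs progenitors to the secretory fate, so that Notch activity keeps cells absorptive or undifferentiated. CDX1 and CDX2 are homeoproteins that set the intestinal identity of this epithelium.

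The RefSeq promoter table (GRCh38.p14) held 9 of the 10 genes, all but DLL1. The 250 bases before the start of HES1 and of HES4 are shown because these were the only members whose window held the core letters bound by RBPJ, TGGGAA. Matches are in capitals, and the windows are chr3:194135898-194136147 (plus strand) for HES1 and chr1:1000098-1000347 (minus strand) for HES4.
HES1: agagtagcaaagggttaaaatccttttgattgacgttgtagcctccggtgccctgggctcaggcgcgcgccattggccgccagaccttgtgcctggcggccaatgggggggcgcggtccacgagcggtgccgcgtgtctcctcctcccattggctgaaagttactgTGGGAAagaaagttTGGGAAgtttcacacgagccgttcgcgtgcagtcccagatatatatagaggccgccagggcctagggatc
HES4: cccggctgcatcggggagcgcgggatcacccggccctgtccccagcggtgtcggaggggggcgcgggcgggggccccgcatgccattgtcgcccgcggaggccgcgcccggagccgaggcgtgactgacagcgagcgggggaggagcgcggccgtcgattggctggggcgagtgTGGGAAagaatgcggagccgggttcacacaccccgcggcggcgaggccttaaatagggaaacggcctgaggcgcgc

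HES1 carried the core 2 times, beginning 84 and 70 bases before the start, and HES4 carried it 1 time, 76 bases before the start, all on the strand of the gene. Searched on both strands, the core was found in 20.8% of the 35116 promoter windows of this length in the table and at least 2 times in 2.9% of them. The N box, CACNAG, a site bound by HES repressors, was found 3 times in HES1 and 1 time each in NOTCH3 and ATOH1, against 32% of all windows with a match. The E box, CANNTG, to which ATOH1 and other basic helix-loop-helix factors bind, was found 2 times in JAG2 and 1 time in ATOH1, against 61.8% of all windows. The letters TTTATG, a CDX site, were in none of the 9 windows and in 9.64% of all. No match overlapped another. The arrays name no genome build, so the probes are given without coordinates. A match describes these letters in this window and no more.

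The first comparison asked which of the 10 genes changed in the same way on the 3 arrays. Both HES genes and both Jagged ligands fell, and no receptor, Delta-like ligand or ATOH1 passed the test. HES1 fell most, to 2.10-fold below non-induced cells, followed by JAG1 at 1.94-fold, HES4 at 1.44-fold and JAG2 at 1.33-fold. In limma, 4 of the 10 members were lower and 0 were higher at an adjusted p under 0.05, against 1935 of 16030 genes lower (12.1%) and 2998 higher (18.7%). As the members were chosen with earlier results of these data known, this contrast with all genes is no test of the pathway. The median of the mean log2 ratios was -0.08 over the members and 0.01 over all genes tested. As whole cultures were measured, less RNA per cell and fewer cells that express a gene cannot be told apart. Because the arrays were 3 different sets of cells, 2 of them with Cdx1, these p-values measure the spread between sets and not between replicates. With no dye swapped, a dye bias of a probe that repeats on every array cannot be told apart from a change on induction. This holds for every gene called lower or higher here.

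**Figure D1:**
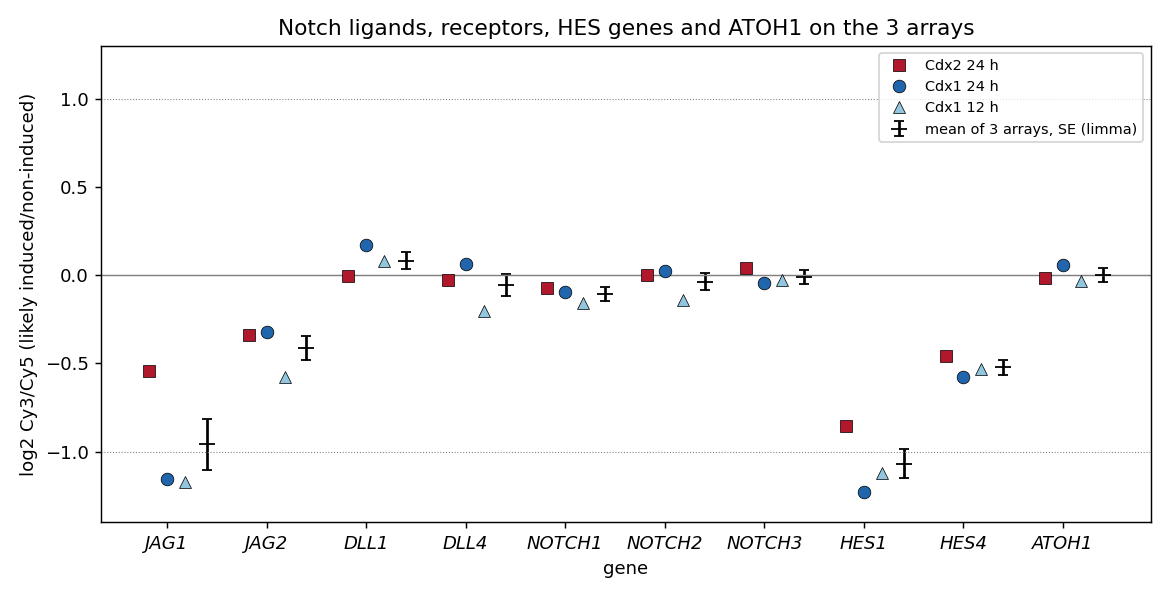
Log2 Cy3 over Cy5 (y axis) of the 10 genes (x axis) on the Cdx2 24 h, Cdx1 24 h and Cdx1 12 h arrays, with the mean of the 3 arrays and its SE from limma at the right of each gene; dotted lines mark a 2-fold difference. HES1, HES4, JAG1 and JAG2 lie below 0 on every array, and the other 6 genes stay between -0.20 and 0.17.

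HES1 is the basic helix-loop-helix repressor that Notch induces in intestinal progenitors. Its spots read 305, 219 and 218 in Cy3 (induced) on the Cdx2 24 h, Cdx1 24 h and Cdx1 12 h arrays, against 267, 235 and 260 in Cy5 (non-induced). The dyes have scales of their own: the median gene probe had a raw log2 Cy3 over Cy5 of 1.63, 1.77 and 1.47 on these arrays, whereas HES1 had 0.19, -0.10 and -0.26. HES1 thus lay far below the median probe in raw ratio on every array. This gap is not the size of its fall, as raw ratios also vary with brightness. The median probe was dimmer than HES1, at 38.0, 41.2 and 47.8 in Cy5. HES7, named here after its values were seen, read 200, 201 and 236 in Cy5. Its raw ratios were 1.20, 0.96 and 0.86, and 0.07, -0.24 and -0.07 after normalization. After normalization the log2 ratios of HES1 were -0.86, -1.23 and -1.12, with a mean of -1.07 ± 0.083 (SE, n = 3 arrays, limma adjusted p = 0.00696). Only 0.312% of all genes had a lower mean. The size of the fall depended on the correction for brightness. With median centring in place of loess the mean was -0.72 (limma adjusted p = 0.00359). Loess had removed a trend of 0.40, 0.37 and 0.27 log2 units above the array median at the brightness of HES1.

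HES4, a HES family repressor that humans have and mice lack, gave bright spots on every array. Its Cy3 spots read 1208, 860.0 and 1162 on the Cdx2 24 h, Cdx1 24 h and Cdx1 12 h arrays, against 788, 585 and 901 in Cy5. The log2 ratios of -0.45, -0.58 and -0.53 lay close together, and their mean was -0.52 ± 0.042 (SE, n = 3 arrays, limma adjusted p = 0.00696). This fall depended on the correction for brightness. With median centring in place of loess the mean was -0.02 (limma adjusted p = 0.830), because loess had removed a trend of 0.54, 0.53 and 0.45 log2 units above the array median at the brightness of HES4.

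JAG1, a Jagged ligand that intestinal and colon cancer cells can present to their neighbours, read 464, 575 and 492 in Cy3 on the Cdx2 24 h, Cdx1 24 h and Cdx1 12 h arrays, against 322, 589 and 607 in Cy5. Its log2 ratios were -0.54, -1.16 and -1.17, so that both Cdx1 arrays lay together and the Cdx2 array nearer to 0. The mean was -0.96 ± 0.146 (SE, n = 3 arrays, limma adjusted p = 0.0158). Its size also depended on the correction for brightness. With median centring the mean was -0.50 (limma adjusted p = 0.0314), as loess had removed a trend of 0.45, 0.51 and 0.39 log2 units at JAG1. Without the Cdx1 12 h array the mean was -0.85 (limma adjusted p = 0.0685) and without the Cdx1 24 h array -0.86 (limma adjusted p = 0.0542), so that the call was lost in both cases. When the background column of the files was subtracted the mean was 0.52 (limma adjusted p = 0.111), but that column stood at 97.2%, 94.3% and 101% of the JAG1 spot itself in Cy5.

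JAG2, the other Jagged ligand, was a dimmer probe. It read 109.9, 132 and 118 in Cy3 on the Cdx2 24 h, Cdx1 24 h and Cdx1 12 h arrays, against 58.7, 63.9 and 86.8 in Cy5, about 2 thresholds in Cy3 and 4.71 to 5.98 thresholds in Cy5. Its log2 ratios were -0.34, -0.32 and -0.58, lowest at 12 h of Cdx1, with a mean of -0.41 ± 0.066 (SE, n = 3 arrays, limma adjusted p = 0.0173). An offset of 50 added to every spot shrinks the ratios of dim probes such as this one, and without it the mean was -0.78, with the call kept. With an offset of 200 the mean was -0.18 (limma adjusted p = 0.0527).

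The background column ended the calls of all 4 genes. Subtracting it gave a mean log2 ratio of -0.38 for HES1, -0.39 for HES4 and -0.29 for JAG2 (limma adjusted p = 0.376, 0.249 and 0.0713). The column followed the spots themselves, with rank correlations of 0.963, 0.883 and 0.943 in Cy5 over the gene probes of the Cdx2 24 h, Cdx1 24 h and Cdx1 12 h arrays.

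**Figure D2:**
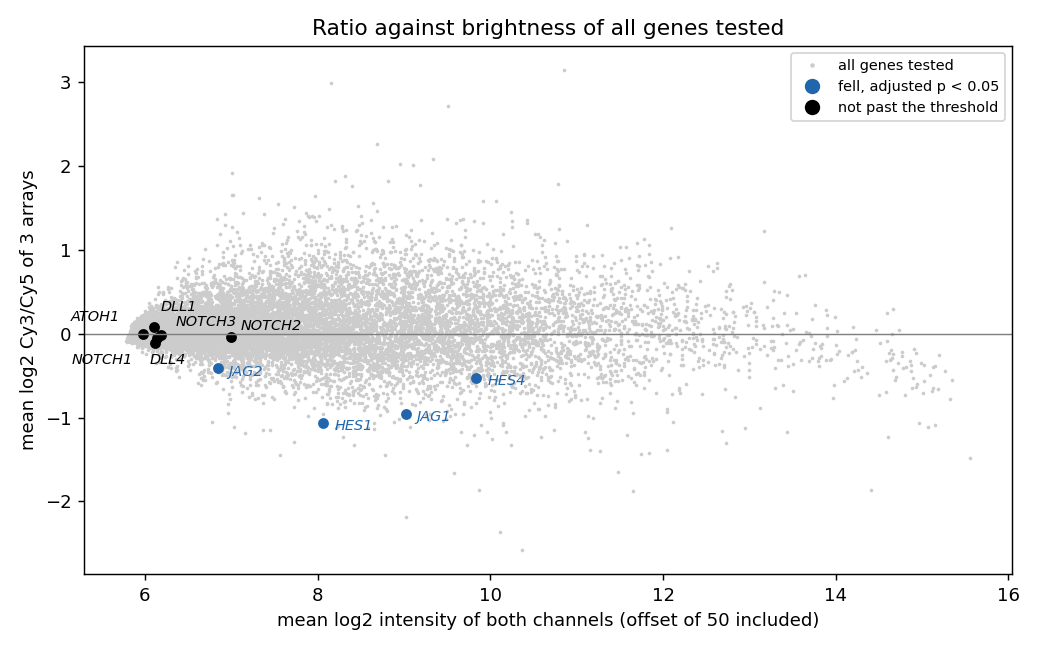
Mean log2 Cy3 over Cy5 of the 3 arrays (y axis) against the mean log2 intensity of both channels (x axis) for all 16030 genes tested, with the 10 genes marked. HES1 and JAG1 lie at the lower edge of the genes of like brightness, HES4 and JAG2 lie less far below 0, and the other 6 genes lie near 0, 5 of them at the dim end where the offset narrows the ratios.

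The Delta-like ligands gave no call. DLL1, the ligand of secretory progenitors that keeps Notch active in adjacent stem cells, had log2 ratios of -0.00, 0.17 and 0.08 on the Cdx2 24 h, Cdx1 24 h and Cdx1 12 h arrays (mean 0.08, 95% interval -0.05 to 0.21, limma adjusted p = 0.273). DLL4, which acts beside DLL1 in the mouse crypt, had -0.03, 0.06 and -0.20 (mean -0.06, interval -0.23 to 0.12, limma adjusted p = 0.561). Both probes were dim, at 1.34 to 1.54 thresholds for DLL1 and 1.57 to 1.91 for DLL4 in Cy5, and the offset narrows ratios at this brightness: without it the means were 0.29 and -0.21, neither past the threshold.

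Of the receptors, NOTCH1, which together with NOTCH2 maintains the intestinal crypt in mice, was read by 3 probes. They averaged -0.07, -0.09 and -0.16 on the Cdx2 24 h, Cdx1 24 h and Cdx1 12 h arrays (mean -0.11 ± 0.038, SE, n = 3 arrays, limma adjusted p = 0.110). The brightest of them, at 2.57 to 3.05 thresholds in Cy5, had -0.07, -0.18 and -0.15, a second had -0.08, -0.11 and -0.24, and the third, which was not above background in Cy3 on the Cdx1 12 h array, had -0.06, 0.01 and -0.07. NOTCH1 stayed below 0 under all 14 alternatives run and passed the threshold in 5 of them, with -0.44 where no offset was added (limma adjusted p = 0.0224).

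NOTCH2, the other receptor of the intestinal epithelium, was the brightest receptor probe among the members, at 4.11 to 5.59 thresholds in Cy5. Its spots read 151, 157 and 156 in Cy3 on the Cdx2 24 h, Cdx1 24 h and Cdx1 12 h arrays, against 60.6, 55.7 and 81.1 in Cy5. The log2 ratios of 0.00, 0.03 and -0.14 spanned 0 (mean -0.04, interval -0.17 to 0.10, limma adjusted p = 0.617). NOTCH3, a receptor best known from vascular smooth muscle, had 0.04, -0.04 and -0.03 (mean -0.01, interval -0.11 to 0.09, limma adjusted p = 0.869). Its spots reached 1.81 to 1.90 thresholds in Cy5.

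ATOH1, the target that HES1 represses, lay close to background in both channels, at 1.07 to 1.15 thresholds in Cy3 and 1.24 to 1.36 thresholds in Cy5. Its spots read 61.4, 78.2 and 66.1 in Cy3 on the Cdx2 24 h, Cdx1 24 h and Cdx1 12 h arrays, against 15.7, 16.9 and 18.4 in Cy5. The log2 ratios were -0.01, 0.06 and -0.04 (mean 0.00, interval -0.10 to 0.11, limma adjusted p = 0.967), and with median centring the mean was -0.18 (limma adjusted p = 0.0317). The ways of normalizing thus gave different results for ATOH1, and the size of change that could be detected at this brightness was not tested.

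**Figure D3:**
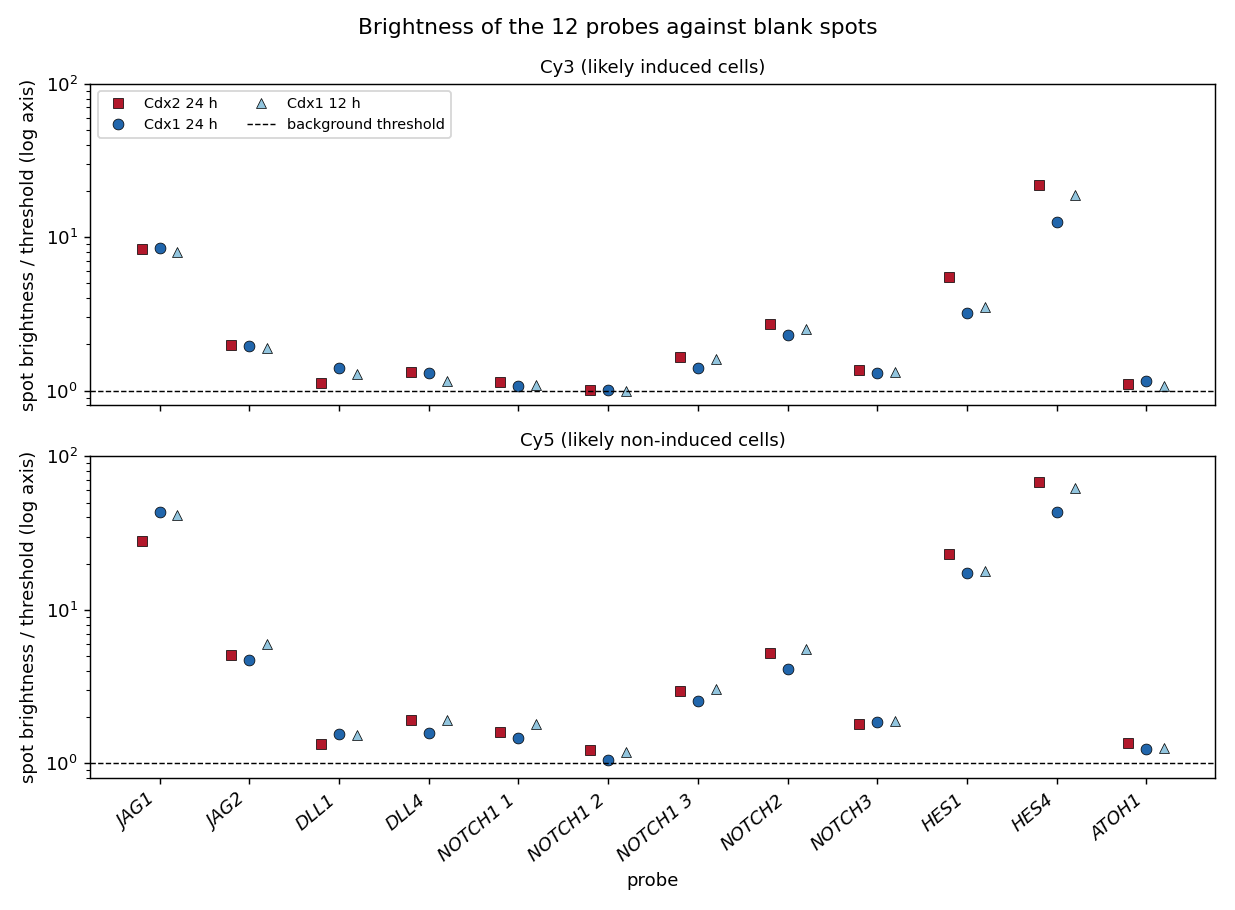
Brightness of the 12 probes (x axis; NOTCH1 has 3) as a multiple of the background threshold of the array (log y axis), in Cy3 above and in Cy5 below, on the Cdx2 24 h, Cdx1 24 h and Cdx1 12 h arrays. HES1, HES4 and JAG1 exceed 15 thresholds in Cy5 on every array, whereas 6 probes, those of DLL1, DLL4, NOTCH3 and ATOH1 and 2 of NOTCH1, stay under 2.

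On single arrays, 0, 2 and 2 members were at least 2-fold lower on the Cdx2 24 h, Cdx1 24 h and Cdx1 12 h arrays, against 0.25%, 0.892% and 0.374% of all genes. HES1 and JAG1 were the 2 members on both Cdx1 arrays. No member was 2-fold higher on any array, against 0.93%, 2.29% and 1.09% of all genes. These counts carry no test.

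The second comparison asked whether Cdx2 and Cdx1 differed. JAG1 differed most among the members: its log2 ratio was -0.54 with Cdx2 and averaged -1.16 with Cdx1, a difference of 0.62 (95% interval 0.36 to 0.88, limma unadjusted p = 0.00352, adjusted p = 0.935). HES1 was at -0.86 with Cdx2 and averaged -1.17 with Cdx1, a difference of 0.32 (interval 0.02 to 0.62, limma unadjusted p = 0.0423, adjusted p = 0.941). The spread here rests on 1 residual degree of freedom, the difference between 24 and 12 h of Cdx1. In limma 0 of 16030 genes (0%) passed the adjusted threshold, and 844 (5.27%) had an unadjusted p under 0.05, so neither difference was shown. HES4 differed by 0.10 (interval -0.17 to 0.37) and JAG2 by 0.11 (interval -0.32 to 0.54).

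Between 24 and 12 h of Cdx1, the log2 ratio of JAG1 differed by 0.02, that of HES4 by -0.04 and that of HES1 by -0.11. These are less than the SD between different probes of the same gene, which was 0.174, 0.217 and 0.204 on the Cdx2 24 h, Cdx1 24 h and Cdx1 12 h arrays over 2004 genes. That SD is within an array and over all brightness, so it is a guide only. The spread of the same probe between like arrays was not measured. The ratio of JAG2 differed by 0.26 and that of DLL4 by 0.27, somewhat more than this SD, in dim probes and without a test.

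The levels behind the ratios of JAG1, HES1 and HES4 differed between the 24 h arrays of the clones. In log2 intensity after scaling of both channels across arrays, JAG1 was at 8.56, 8.66 and 8.40 in induced cells on the Cdx2 24 h, Cdx1 24 h and Cdx1 12 h arrays, against 9.10, 9.81 and 9.58 in non-induced cells. The induced levels of the Cdx2 and Cdx1 cells at 24 h thus lay 0.10 apart, whereas the non-induced level of the Cdx2 clone was 0.71 below that of the Cdx1 clone. For comparison, the same difference between non-induced cells ran from -0.39 to 0.37 over the middle 90% of 21894 probes. The smaller JAG1 ratio of the Cdx2 array therefore went with a lower level in its non-induced cells. These levels carry no test, and with no dye swapped they are open to dye bias. With 1 array per group, a difference between clones and a difference between arrays cannot be told apart.

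HES1 had the other pattern. It was at 7.97, 7.31 and 7.33 in induced cells on the Cdx2 24 h, Cdx1 24 h and Cdx1 12 h arrays, against 8.83, 8.53 and 8.45 in non-induced cells. Its induced level was 0.67 higher with Cdx2 than with Cdx1 at 24 h, and its non-induced level 0.29 higher. HES4 was at 9.89, 9.24 and 9.60 in induced cells, against 10.34, 9.82 and 10.14 in non-induced cells, so both levels were higher in the Cdx2 clone than in the Cdx1 clone at 24 h, by 0.65 and 0.53. JAG2 differed by -0.03 in induced and by -0.01 in non-induced cells. Between 24 and 12 h of Cdx1, HES4 itself differed by -0.36 in induced and by -0.32 in non-induced cells.

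**Figure D4:**
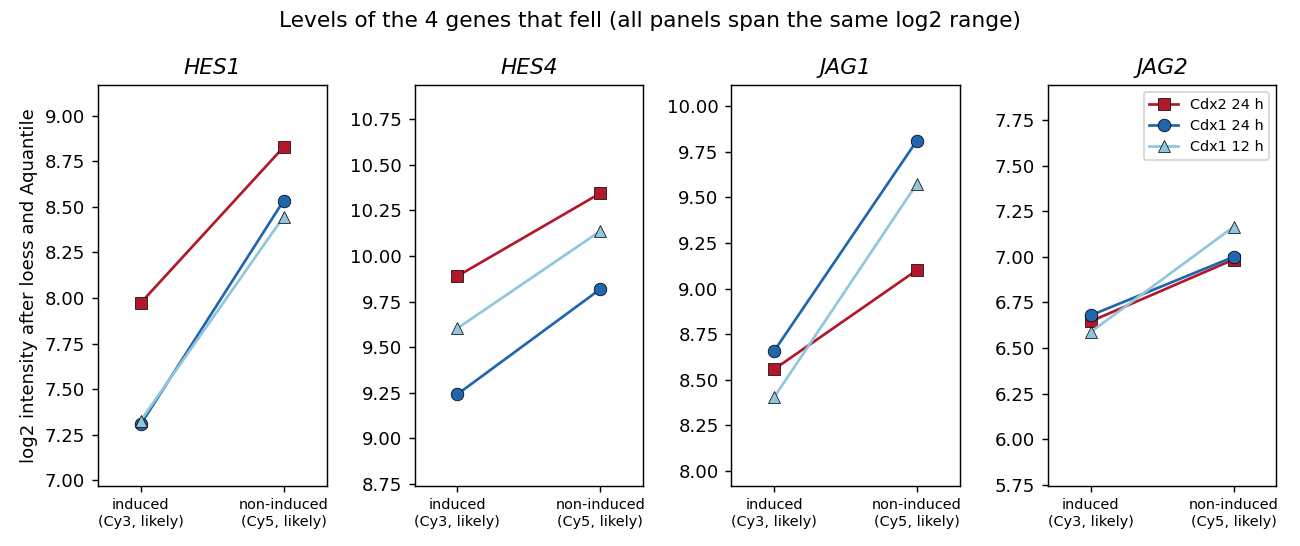
Log2 intensity (y axis) of HES1, HES4, JAG1 and JAG2 in induced (Cy3, left) and non-induced cells (Cy5, right), joined within each array; every panel spans the same log2 range. JAG1 levels meet in induced cells and part in non-induced cells, where Cdx2 24 h lies at 9.10 and Cdx1 24 h at 9.81, whereas for HES1 and HES4 the Cdx2 array is highest in both.

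By distance between the ratios on the 3 arrays, over all 16030 genes, HES1 lay nearest to CEBPB, RRP9, ABHD6, MYC and NOP16. CEBPB, a leucine zipper transcription factor, had log2 ratios of -0.92, -1.25 and -1.10 on the Cdx2 24 h, Cdx1 24 h and Cdx1 12 h arrays, at a distance of 0.0722 from HES1. MYC, a growth-promoting transcription factor, had -0.89, -1.32 and -1.21, at a distance of 0.140. JAG1 lay nearest to SAPCD2, RAB20, PLEC, PPAN and WDR74, at distances of 0.189 to 0.235. RAB20, a small GTPase, had -0.70, -1.23 and -1.26 on these arrays. With 3 arrays this likeness is a description.

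The rest of the pathway was taken from role lists that held 77 further genes, of which 64 were measured. Of these, 8 were lower (12.5%), 12 were higher (18.8%) and 44 did not pass the test, shares close to the 12.1% and 18.7% over all genes. Their median mean log2 ratio was -0.03. No other gene of the HES, HEY and NRARP list passed: the other 8 measured, among them HEY1, HEY2, HEYL and NRARP, which are also Notch targets in many tissues, had means of -0.10 to -0.01. HEY1 stood within 1.20 thresholds in Cy5 and NRARP within 1.47, so these targets were near background as well. HES6 and HES7, named here after their values were seen, were brighter, at 5.44 to 7.35 and 14.8 to 17.4 thresholds in Cy5. HES6 had 0.05, -0.21 and -0.15 and HES7 had 0.07, -0.24 and -0.07 on the Cdx2 24 h, Cdx1 24 h and Cdx1 12 h arrays. The endothelial receptor NOTCH4 fell, with -0.24, -0.31 and -0.25 on the Cdx2 24 h, Cdx1 24 h and Cdx1 12 h arrays (mean -0.27 ± 0.037, SE, limma adjusted p = 0.0132), but its mean was -0.041 with median centring (limma adjusted p = 0.549). Of the 20 genes that passed, 13 lost the call when at least 1 of the arrays was left out, with means 0.716 to 1.24 times those over all arrays: NOTCH4, RBPJ, APH1A, APH1B, POFUT1, EOGT, MIB1, MIB2, NUMB, FBXW7, NEUROG3, SOX4 and KLF4. With median centring 8 lost it, which were NOTCH4, APH1B, POFUT1, MIB2, DTX2, NEUROG3, SOX4 and KLF4.

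In the nuclear complex that Notch joins, 4 of 9 measured genes rose and 0 fell, with a median mean log2 ratio of 0.15. Over all genes tested, 18.7% were higher and 12.1% lower, and no set test was run on this or any other role list. RBPJ itself, the DNA-binding partner of Notch, had log2 ratios of 0.13, 0.35 and 0.27 on the Cdx2 24 h, Cdx1 24 h and Cdx1 12 h arrays (mean 0.25 ± 0.056, SE, limma adjusted p = 0.0361), and it passed in 6 of 14 alternatives. The acetyltransferase KAT2B, a coactivator, rose most, with 0.75, 0.87 and 0.55 (mean 0.72 ± 0.072, SE, limma adjusted p = 0.00837). The acetyltransferase EP300 averaged 0.39 and SNW1, a splicing factor that also binds RBPJ, 0.42. The coactivators MAML1, MAML2 and MAML3 are named here after their values were seen, and they differed in sign. MAML1 had -0.06, -0.21 and -0.20 (mean -0.16, limma adjusted p = 0.0745). MAML2 had 0.07, 0.20 and 0.19 (mean 0.15, limma adjusted p = 0.0645), and MAML3 averaged 0.04 (limma adjusted p = 0.408).

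Of the 8 measured genes of receptor cleavage, 2 rose and 1 fell, against 18.7% higher and 12.1% lower over all genes. ADAM17, a protease that can shed the Notch ectodomain, had 0.51, 0.62 and 0.41 on the Cdx2 24 h, Cdx1 24 h and Cdx1 12 h arrays (mean 0.51 ± 0.054, SE, limma adjusted p = 0.00868). Of the subunits of γ-secretase, the protease that frees the intracellular part, APH1B averaged 0.17 and APH1A -0.21. APH1A was at 0.24 with median centring. APH1B stood at 1.07 to 1.21 thresholds in Cy5, and its mean ran from 0.0066 with median centring (limma adjusted p = 0.915) to 1.57 in the authors' values. Among 6 glycosylation genes, POFUT1, which adds O-fucose to the receptor, fell (mean -0.38, limma adjusted p = 0.0361), and EOGT, which adds O-GlcNAc, rose (mean 0.27, limma adjusted p = 0.0282).

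Of 12 measured genes that move or degrade ligands and receptors, 4 rose and 2 fell, against 18.7% higher and 12.1% lower over all genes. MIB1, the ubiquitin ligase that ligands need for signalling, averaged 0.30. NUMB, an inhibitor of Notch, averaged 0.17, and the ubiquitin ligases ITCH and FBXW7, which can direct Notch to degradation, averaged 0.40 and 0.27. DTX2, a Deltex ubiquitin ligase, fell most, with -0.44, -0.66 and -0.73 on the Cdx2 24 h, Cdx1 24 h and Cdx1 12 h arrays (mean -0.61 ± 0.069, SE, limma adjusted p = 0.00982), against a mean of -0.17 with median centring (limma adjusted p = 0.125). MIB2 averaged -0.16.

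In the secretory lineage, GFI1, a zinc finger repressor that acts after ATOH1 in secretory progenitors, rose. Its spots read 335, 621 and 461 in Cy3 on the Cdx2 24 h, Cdx1 24 h and Cdx1 12 h arrays, against 67.5, 92.3 and 108 in Cy5. Its log2 ratios were 0.89, 1.32 and 0.98 (mean 1.06 ± 0.095, SE, limma adjusted p = 0.00774), and it passed under all 14 alternatives run. NEUROG3, the enteroendocrine factor, fell (mean -0.28), as did SOX4 (mean -0.31) and KLF4, a goblet cell factor (mean -0.44), while the other 6 of the 10 measured factors, ATOH1 among them, did not pass. SOX4 was at 0.04 with median centring.

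Of the 10 measured products of secretory cells, 0 passed the adjusted threshold in limma and 3 had an unadjusted p under 0.05. Over all genes, 6901 of 16030 had an unadjusted p under 0.05 in the same fit, so the 3 do not stand out. TFF3, the trefoil peptide of goblet cells, had the largest mean, with log2 ratios of 0.08, 0.43 and 0.25 on the Cdx2 24 h, Cdx1 24 h and Cdx1 12 h arrays (mean 0.25 ± 0.078, SE, limma adjusted p = 0.0777), and with median centring its mean was 0.77 (limma adjusted p = 0.00178). Other products of this list, goblet cell ones among them, are named here after their values were seen. SPINK4 had -0.14, -0.35 and -0.12 (mean -0.20) and AGR2 0.31, -0.59 and 0.46 (mean 0.06). FCGBP averaged 0.09, ZG16 -0.10 and REG4 -0.05. The goblet cell mucin MUC2, CLCA1, the Paneth cell defensins DEFA5 and DEFA6 and glucagon (GCG) were left out of the fit, since each lay below the threshold in both channels of some array. On the Cdx2 24 h array MUC2 and CLCA1 exceeded it in both channels and DEFA5 in Cy5.

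**Figure D5:**
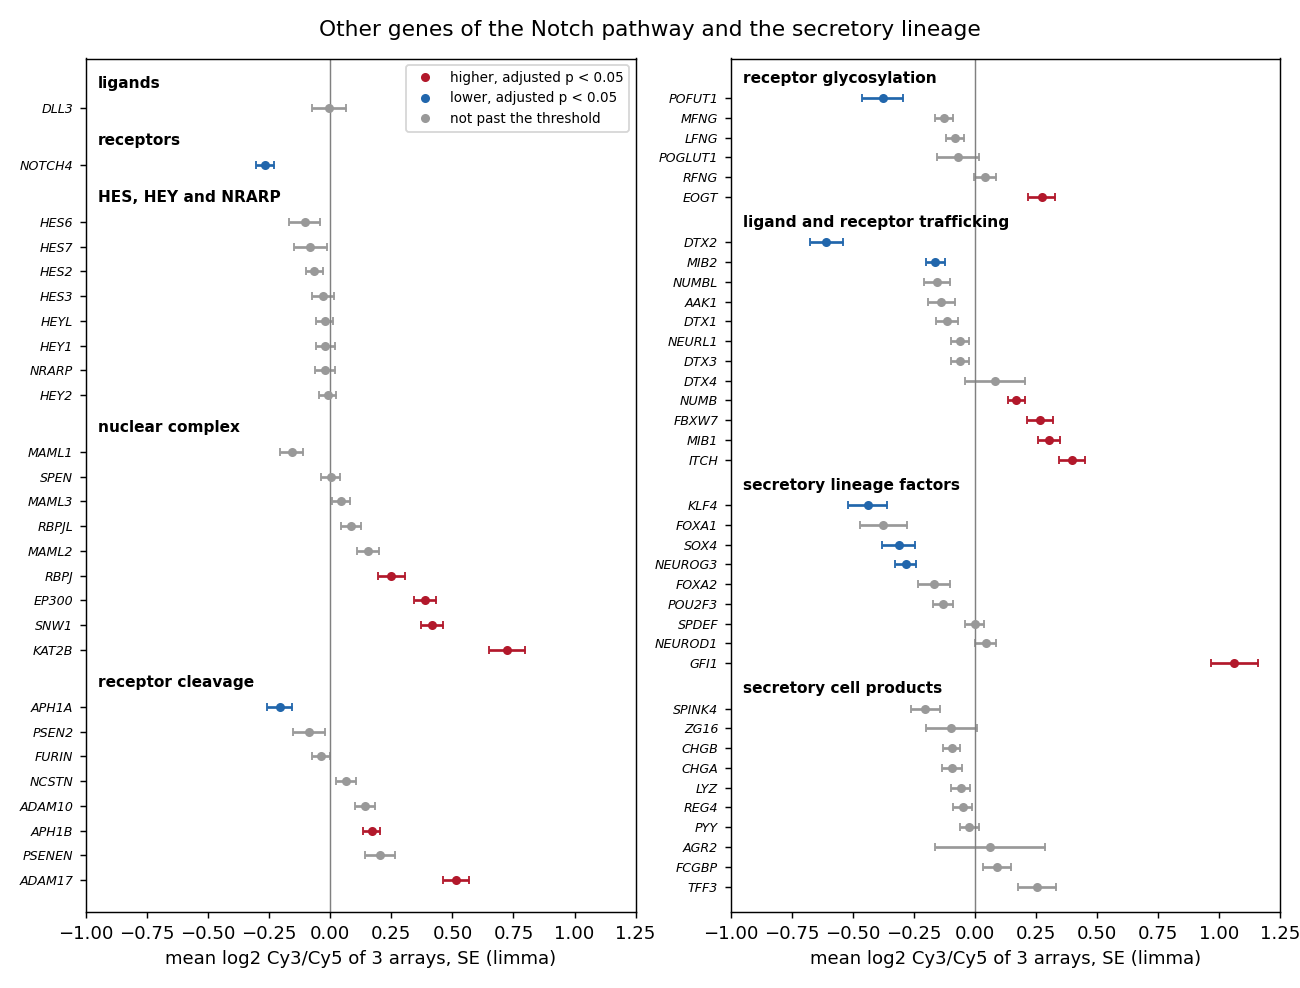
Mean log2 Cy3 over Cy5 of the 3 arrays with its SE (x axis) for the 64 measured genes of the role lists that are not among the 10, grouped by role, with called genes in red (higher) and blue (lower). GFI1, at 1.06, and KAT2B, at 0.72, are farthest above 0, and DTX2, at -0.61, is farthest below.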

How the data were processed

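The deposited scanner files of the authors hold the intensity of every spot in Cy5 and in Cy3, without background subtraction. The RNA had been amplified as aRNA before dye coupling. A table of log2 values was deposited by the authors as well. By comparison its values were log2 Cy3 over Cy5 with the mean of the blank spots taken off and a median of 0 per array (r = 1), and they served as an alternative. Scanner software was not given in the sources used here.

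Background was corrected by normexp (no local background, offset 50), and loess (span 0.3, controls at weight 0) was applied within arrays, both in limma 3.58.1 (R 4.3.3). The threshold was the mean of 2680 blank spots, trimmed by 5% at each end, plus 2 SD, and gave the filled cells of the value table for 24460 of 24460 probes. Probes above it in at least 1 channel on every array and not flagged were averaged by gene, with symbols updated through RefSeq (2899 probes). Levels were scaled by Aquantile. Change over the 3 arrays and Cdx2 minus the mean of Cdx1 were tested with limma (two-sided, Benjamini-Hochberg over 16030 genes); the number of arrays limits the precision. The fits were tested on simulated ratios.

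Named genes were the 10 members, every called gene of 9 role lists (or the largest change where none passed), and the 5 genes nearest to HES1 and to JAG1. Members and lists were chosen with earlier results of these data known. Alternatives were offsets of 0 and 200, the background column, subtraction of the blank mean, median centring, the authors' values, other filters on dim probes, the brightest probe, an intensity trend, robust eBayes, a 1.5-fold threshold and each array left out. HES protein identity was planned and not run.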

Additional observations from a re-analysis of the deposited data

Results flagged for a closer look

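In 5 members the log2 ratios had opposite signs between homeoproteins or times, and none of these differences was shown by a test. DLL1 was at -0.00 with Cdx2 and at 0.17 and 0.08 with Cdx1 at 24 and 12 h, a difference of -0.13 between Cdx2 and the mean of Cdx1 (limma adjusted p = 0.999). NOTCH3 was at 0.04 with Cdx2 and at -0.04 and -0.03 with Cdx1, a difference of 0.075 (limma adjusted p = 0.999). Between 24 and 12 h of Cdx1 the sign turned in DLL4 (0.06 at 24 h and -0.20 at 12 h, difference 0.27), NOTCH2 (0.03 and -0.14, difference 0.16) and ATOH1 (0.06 and -0.04, difference 0.092), and these 3 differences were not tested. All 5 sets of values lie near 0, and the differences of DLL1, NOTCH2, NOTCH3 and ATOH1 are below the smallest SD between probes of the same gene, 0.174. That SD is between probes within an array and does not measure the spread between arrays.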

How the results depend on the processing

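HES1 passed the threshold in 13 of 14 alternatives (means -1.43 to -0.38), HES4 and JAG2 in 12 each (-0.62 to -0.02 and -0.87 to -0.18) and JAG1 in 10 (-1.16 to 0.52). Not all alternatives could move a mean. For genes with 1 probe, such as these, the filters on dim probes, the brightest probe, the intensity trend and robust eBayes left it unchanged. Those settings could alter only the SE and the adjusted p, so the counts of alternatives passed are not counts of independent checks. With the background column, JAG1 turned to 0.52, ATOH1 to -0.017 and the HES1 difference between Cdx2 and Cdx1 to -0.61. With median centring, which moved the median of all genes to 0.09, DLL1 turned to -0.046, NOTCH2 to 0.10, ATOH1 to -0.18, APH1A to 0.24 and SOX4 to 0.039. With each array left out in turn, DLL4 ranged from -0.12 to 0.018, NOTCH2 from -0.069 to 0.014, NOTCH3 from -0.035 to 0.0062 and ATOH1 from -0.024 to 0.022. Of the called genes outside the members, GFI1 passed in all 14 alternatives, ADAM17, DTX2, EP300, ITCH, KAT2B and SNW1 in 13, and the others in 4 (APH1A) to 11 (MIB1).

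Members called lower numbered 2 with an offset of 200 and 0 with the background column, against 4. The genes called lower numbered 1233 and 266 under these settings and the genes called higher 1908 and 249, with 6372 higher under median centring. Without 1 array, 713 to 1203 genes were lower and 1391 to 2239 higher. In the role lists, members included, 21 were lower with no offset, 6 with an offset of 200, 3 with the background column, 19 with the authors' values or an intensity trend, and 4 to 7 without 1 array, against 12. Those higher numbered 7 with an offset of 200, 1 with the background column, 20 with median centring and 6 to 8 without 1 array, against 12.

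On single arrays (Cdx2 24 h, Cdx1 24 h and Cdx1 12 h), the genes 2-fold lower numbered 137, 433 and 172 with no offset, 21, 66 and 26 with an offset of 200, 305, 710 and 390 with the blank mean subtracted, 5, 41 and 22 with median centring, 149, 482 and 199 in the authors' values, and 277, 652 and 375 at 1.5-fold. On the Cdx2 array 1 member passed with no offset, the blank mean subtracted, the authors' values and at 1.5-fold, and on both Cdx1 arrays 0 members passed with an offset of 200, the background column and median centring. The cause of these shifts was not tested. No paired analysis was possible because each group held 1 array and the labels number no replicates. Spots near the threshold limit what DLL1, DLL4, NOTCH1, NOTCH3 and ATOH1 can show.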
